A study of Mus musculus with 10 samples.

Results

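The genes of the mouse major histocompatibility complex, named H2, were followed across livers with more or less of the SREBP transcription factors, together with 6 genes that cut, carry and load the peptides which H2 molecules display. Members were the genes whose single symbol in the platform annotation began with H2- or was B2m, Psmb8, Psmb9, Tap1, Tap2 or Tapbp. They numbered 34 of the 8251 genes measured and lay on 47 of 12488 probe sets, and each gene was read from the brightest of its probe sets, by the mean of the 10 arrays. Of the 34 genes, 18 were read from plain _at probe sets, 10 from _f_at, 3 from _g_at, 2 from _s_at and 1 from an _i_at probe set. An _f_at or _s_at probe set holds probes that match several similar transcripts, so the class I members read this way cannot be separated fully from their paralogs.

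The arrays were Affymetrix GeneChip murine arrays hybridised with liver RNA of male mice, in 5 groups. Scap-/- mice lacked SCAP, the escort protein that carries SREBPs to their activating proteases. They carried MX1-Cre, a recombinase under an interferon-inducible promoter, and had received 4 injections of polyinosinic-polycytidylic acid, a double-stranded RNA analog that induces interferon. Their wild type controls received the same injections, and both groups were 10 to 12 weeks old, ate Teklad chow and were killed 14 days after the last injection. TgSREBP-1a and TgSREBP-2 mice expressed truncated, constitutively nuclear human SREBPs. At 12 to 16 weeks of age these mice, and wild type littermates, had eaten a diet high in protein and low in carbohydrate for 2 weeks, and the littermates are called high-protein wild type below. RNA of 5 mice per group was mixed into 1 pool, and each pool was hybridised to 2 arrays, so every test below compares pools and measures the spread between hybridisations, not between mice. The genetic background and H2 haplotype of the lines are not given in the sources used here.

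Class I molecules pair a heavy chain with beta-2 microglobulin, the product of B2m, and display peptides of cytosolic proteins to CD8 T cells. The peptides are cut by proteasomes that carry the inducible subunits Psmb8 and Psmb9, pumped into the endoplasmic reticulum by the Tap1 and Tap2 transporter, and loaded with the help of Tapbp, or tapasin. H2-K1 and H2-D1 encode the classical class I chains, and the Q, T and M genes encode class I-like chains of more restricted use. H2-Q10 is known as a class I molecule that the liver makes in quantity and secretes into serum. Class II molecules, such as the H2-Aa and H2-Ab1 pair, display peptides of endocytosed proteins on macrophages, dendritic cells and B cells. In liver the hepatocytes carry class I but little or no class II, which sits mainly on the non-parenchymal cells. Interferons raise many of these genes, class I through interferon-response elements and class II through the coactivator Ciita, and class I promoters also hold an NF-kB site.

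The stretches of 250 bases before the annotated transcription start are shown for 7 members whose values the results turn on, since class I genes share promoter elements. They are RefSeq sequences of the C57BL/6J assembly GRCm38.p6, printed 5′ to 3′ on the gene's own strand. Capitals mark matches, on either strand, to GGGATTCCC (the NF-kB site of the class I enhancer A), GAAGTGAAA or a pair of GAAA words parted by NN (both of interferon-response type), TGACGTCA (cyclic AMP response element) and CCAAT (Y box core), none of which overlap each other in the sequences shown.
H2-K1, chr17:34000334-34000583, minus strand: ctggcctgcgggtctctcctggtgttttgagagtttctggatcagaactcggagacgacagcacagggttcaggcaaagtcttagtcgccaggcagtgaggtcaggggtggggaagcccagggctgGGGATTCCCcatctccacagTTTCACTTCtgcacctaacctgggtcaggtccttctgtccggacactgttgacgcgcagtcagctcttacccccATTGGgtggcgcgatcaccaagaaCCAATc
H2-D1, chr17:35262844-35263093, plus strand: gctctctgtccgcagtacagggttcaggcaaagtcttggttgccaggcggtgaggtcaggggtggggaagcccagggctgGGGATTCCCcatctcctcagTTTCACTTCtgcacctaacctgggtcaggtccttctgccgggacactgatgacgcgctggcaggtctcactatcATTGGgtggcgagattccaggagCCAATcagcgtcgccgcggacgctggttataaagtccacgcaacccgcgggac
H2-Q4, chr17:35379367-35379616, plus strand: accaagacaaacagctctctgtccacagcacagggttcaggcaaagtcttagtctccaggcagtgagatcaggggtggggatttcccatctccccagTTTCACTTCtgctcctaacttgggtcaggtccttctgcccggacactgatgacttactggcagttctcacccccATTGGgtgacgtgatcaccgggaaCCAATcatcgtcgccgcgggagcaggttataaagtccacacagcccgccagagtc
H2-Q10, chr17:35469839-35470088, plus strand: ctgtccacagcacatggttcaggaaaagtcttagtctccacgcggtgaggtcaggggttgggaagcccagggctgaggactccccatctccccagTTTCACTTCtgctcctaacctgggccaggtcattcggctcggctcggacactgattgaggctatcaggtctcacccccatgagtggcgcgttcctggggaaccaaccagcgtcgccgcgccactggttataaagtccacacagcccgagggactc
H2-Aa, chr17:34287824-34288073, minus strand: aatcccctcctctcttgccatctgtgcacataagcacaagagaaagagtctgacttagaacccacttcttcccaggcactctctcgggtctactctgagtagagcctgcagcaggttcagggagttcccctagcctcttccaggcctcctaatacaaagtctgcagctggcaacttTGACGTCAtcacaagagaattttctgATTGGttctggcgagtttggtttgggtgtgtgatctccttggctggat
B2m, chr2:122147437-122147686, plus strand: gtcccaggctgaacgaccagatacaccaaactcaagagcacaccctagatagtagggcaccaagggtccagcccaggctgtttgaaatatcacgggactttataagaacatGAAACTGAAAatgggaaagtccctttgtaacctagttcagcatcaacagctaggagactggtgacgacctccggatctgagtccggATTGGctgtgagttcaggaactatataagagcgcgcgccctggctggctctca
Psmb9, chr17:34187331-34187580, minus strand: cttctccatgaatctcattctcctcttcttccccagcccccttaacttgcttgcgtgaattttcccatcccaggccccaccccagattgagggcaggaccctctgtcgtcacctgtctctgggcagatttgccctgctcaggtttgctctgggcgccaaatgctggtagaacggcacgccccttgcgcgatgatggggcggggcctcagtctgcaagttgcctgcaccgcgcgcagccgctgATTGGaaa

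RefSeq promoter windows were at hand for 23 of the 34 members. The enhancer A word stood in H2-K1 and H2-D1, against 0.301% of all 32851 windows. GAAGTGAAA, a word added after the class I windows had been read, stood in H2-K1, H2-D1, H2-Q4, H2-Q10 and H2-M3, against 0.402% of windows. The spaced GAAA pair stood only in B2m among the 23 and in 2.98% of windows, and TGACGTCA only in H2-Aa and in 1.55%. The Y box core was in 21 of the 23, the exceptions being H2-Q10 and Psmb8, and in 33.8% of all windows. TCACNCCAC, a sterol regulatory element type word, was in none of the 23 members and in 1.05% of windows. Psmb9 and Tap1 are neighbours read in opposite directions, and their windows share 225 bases, so the Psmb9 sequence also shows most of the Tap1 promoter. These matches describe letters in the reference strain, not binding.

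Of the 34 members, 12 passed the test in at least 1 of 5 comparisons and 22 in none. The share of all genes that passed in at least 1 comparison was not computed, so this count has no background beside it. Shares for each single comparison are given with its counts. A gene was called when limma gave an adjusted p under 0.05 over all 8251 genes and the pools differed at least 1.5-fold. Values are log2 signals, differences are log2 differences, and ± gives the fit's moderated standard error with n = 2 arrays per group. In TgSREBP-1a 8 members were called higher and 0 lower than in wild type on the same diet, where 4.78% of all genes were called higher and 2.59% lower. They were H2-K1, H2-D1, H2-K2, H2-Q1, H2-Q4, H2-Q5, H2-Q10 and H2-Aa, of which 7 are class I and none belongs to the processing genes. The median member differed by 0.06, and the median of all genes by -0.03.

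In TgSREBP-2 the members called higher were H2-Q4, H2-Q5, Psmb8 and Psmb9. These 4 of 34 compare with 2.18% of all genes called higher, and 0 members were called lower against 0.388%. The median member differed by 0.20, against -0.02 for all genes. Both transgenic comparisons use the same wild type arrays.

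In the Scap knockout pool 5 members were called lower than in chow-fed wild type and 0 higher, where 0.921% of all genes were called lower and 0.739% higher. They were H2-Q4, H2-Q10, Psmb8, Psmb9 and Tap1, and the median member differed by -0.09 against 0 for all genes. H2-Q4 and H2-Q10 were thus called higher in TgSREBP-1a and lower in Scap knockout, 2 of 8 and 2 of 5 of the members called. H2-Q4, Psmb8 and Psmb9 were called higher in TgSREBP-2 and lower in Scap knockout, 3 of 4 and 3 of 5. Over all genes, 41 were shared in the first way, 10.4% of 394 and 53.9% of 76, and 39 in the second, 21.7% of 180 and 51.3% of 76. The transgenic and the knockout comparisons share no array.

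Between the 2 transgenic pools 1 member was called higher in TgSREBP-1a, H2-Q1, and 3 lower, Psmb8, Psmb9 and Tap1. The shares over all genes were 2.24% higher and 2.95% lower. Between the 2 wild type pools, H2-Q5, H2-Aa, Psmb8, Psmb9 and Tap1 were called lower on the high-protein diet and H2-Ea higher, where 4.34% of all genes were called lower and 1.28% higher. These wild type pools differ in diet, age and injections at once, which cannot be told apart.

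**Figure D1:**
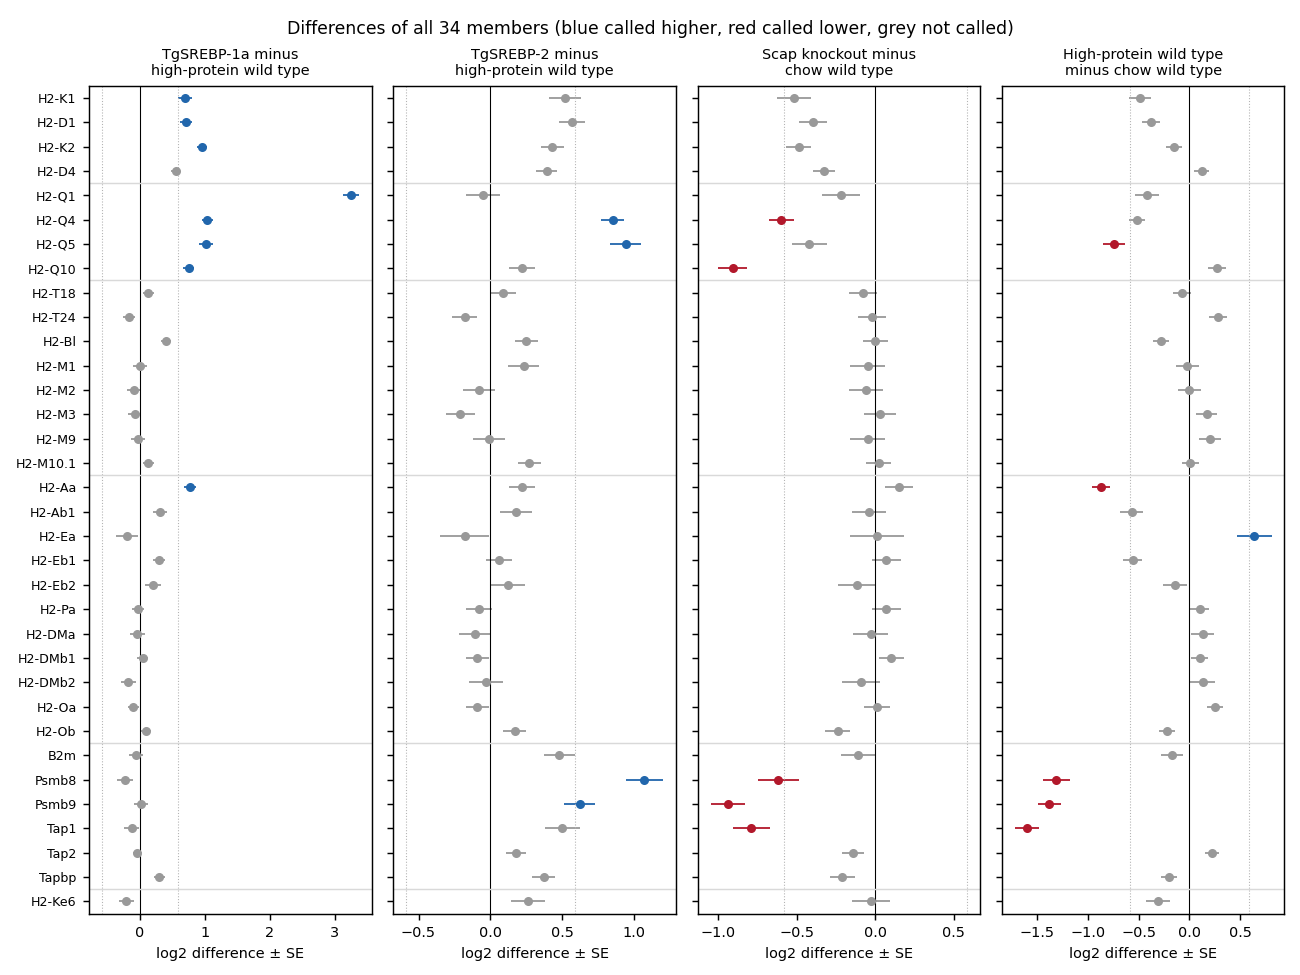
Log2 difference with its standard error for each of the 34 members (rows, grouped by role) in 4 comparisons (panels, each with its own horizontal scale). Dotted lines mark 1.5-fold. In TgSREBP-1a the 8 called members lie in the K, D and Q rows and at H2-Aa, in TgSREBP-2 the called rows are H2-Q4, H2-Q5, Psmb8 and Psmb9, and in Scap knockout 5 rows are called lower.

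The classical class I genes were higher in TgSREBP-1a. H2-K1 stood at 12.85 and 12.70 on the TgSREBP-1a arrays and at 12.24 and 11.94 in high-protein wild type, a rise of 0.69 ± 0.11 or 1.61-fold (adjusted p = 0.00137). TgSREBP-2 arrays read 12.65 and 12.57, also above both wild type arrays, but the difference of 0.52 ± 0.11 was under 1.5-fold (adjusted p = 0.0195). H2-D1 showed the same order, with wild type at 11.83 and 11.68, TgSREBP-2 at 12.34 and 12.30 and TgSREBP-1a at 12.55 and 12.37. It rose by 0.71 ± 0.09 or 1.63-fold in TgSREBP-1a (adjusted p = 0.000351), and in TgSREBP-2 its difference was 0.57 ± 0.09 or 1.48-fold (adjusted p = 0.00493). In Scap knockout both genes read below both wild type arrays, H2-K1 at 12.03 and 12.10 against 12.63 and 12.54, and H2-D1 at 11.68 and 11.78 against 12.13 and 12.14. Neither was called, at -0.52 ± 0.11 and -0.40 ± 0.09. Without replicate 2 of high-protein wild type, H2-K1 differed by 0.54 in TgSREBP-1a and lost its call, and without replicate 1 both genes were called in TgSREBP-2, at 0.67 and 0.64.

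H2-K2 and H2-D4 are classed by RefSeq as transcribed pseudogenes in the reference strain, and both were read from _f_at probe sets. H2-K2 rose by 0.96 ± 0.08 or 1.95-fold in TgSREBP-1a (adjusted p = 2.08e-05), from 11.76 and 11.91 to 12.84 and 12.75. In TgSREBP-2 it read 12.25 and 12.29, between the other pools of that diet, and its difference from wild type of 0.43 ± 0.08 was not called. H2-D4 differed by 0.55 ± 0.07 or 1.47-fold in TgSREBP-1a, just under the fold threshold with an adjusted p = 0.000477. The 4 K and D genes had a median difference from their controls of 0.70 (TgSREBP-1a), 0.47 (TgSREBP-2) and -0.45 (Scap knockout).

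H2-Q1 changed more than any other member, and did so in 1 pool. The TgSREBP-1a arrays read 9.09 and 8.67, against 5.64 and 5.61 in wild type on the same diet, 5.55 and 5.60 in TgSREBP-2, 6.01 and 6.09 in chow-fed wild type and 5.82 and 5.84 in Scap knockout. The 8 arrays of the other 4 pools thus lay within 5.55 to 6.09, and no value came near the TgSREBP-1a pair. The rise over wild type was 3.25 ± 0.12 or 9.53-fold (adjusted p = 3.24e-08), the 6th largest increase of all 8251 genes. Against TgSREBP-2 it was 3.31 ± 0.12 or 9.89-fold (adjusted p = 3.49e-08), the largest increase of all genes in that comparison (rank 1). In TgSREBP-2 H2-Q1 differed from wild type by -0.05. H2-Q1 had 1 probe set of its own name, of the _f_at kind, so no other probe set of that name checks which family member it reads. A plain _at probe set that lists H2-Q1 with H2-Q9, H2-Q7, H2-Q4 and H2-D1 did not rise in TgSREBP-1a. Its difference from high-protein wild type was -0.18 ± 0.12 (limma adjusted p = 0.382), at a dim mean log2 signal of 4.79. Which of these genes it reads was not tested.

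The other Q genes moved less and in more pools. H2-Q4 read 11.12 and 11.15 in wild type, 12.07 and 11.91 in TgSREBP-2, and 12.18 and 12.17 in TgSREBP-1a. It rose by 1.04 ± 0.08 or 2.06-fold in TgSREBP-1a (adjusted p = 1.13e-05) and by 0.85 ± 0.08 or 1.81-fold in TgSREBP-2 (adjusted p = 0.000183). In Scap knockout it read 11.06 on both arrays against 11.60 and 11.72 and fell by 0.60 ± 0.08 (adjusted p = 0.00235). That call was lost without replicate 2 of chow-fed wild type (-0.54, adjusted p = 0.0514) and after a further quantile normalization (-0.53, under 1.5-fold).

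H2-Q5, a transcribed pseudogene in the reference strain, stood at 8.21 and 8.47 in high-protein wild type, 9.40 and 9.17 in TgSREBP-2, and 9.32 and 9.40 in TgSREBP-1a. It rose 2.03-fold in TgSREBP-1a (1.02 ± 0.11, adjusted p = 0.000103) and 1.92-fold in TgSREBP-2 (0.94 ± 0.11, adjusted p = 0.000612). The chow-fed wild type pool read 9.02 and 9.14, so high-protein wild type was lower by 1.67-fold (-0.74 ± 0.11, adjusted p = 0.00154), and all 4 transgenic arrays lay above both chow-fed arrays.

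H2-Q10, the secreted class I gene of liver, was lowest in the Scap knockout pool and highest in TgSREBP-1a, as read from an _s_at probe set. It read 11.73 and 11.92 in Scap knockout, 12.67 and 12.80 in chow-fed wild type, 13.02 and 12.98 in high-protein wild type, 13.19 and 13.25 in TgSREBP-2 and 13.73 and 13.78 in TgSREBP-1a. No 2 of the 5 pools overlapped, and neighbours in this order from chow-fed wild type to TgSREBP-2 differed by 0.27 ± 0.09 (adjusted p = 0.0545) and 0.22 ± 0.09 (adjusted p = 0.235), which limma did not call. The fall in Scap knockout was 0.91 ± 0.09 or 1.88-fold (adjusted p = 0.000215), and the rise in TgSREBP-1a was 0.75 ± 0.09 or 1.68-fold (adjusted p = 0.0002). The step between the transgenic pools, 0.53 ± 0.09 with an adjusted p = 0.00279, fell short of 1.5-fold, and reached 0.66 and a call after a further quantile normalization. The order compares pools of different diet and age where it crosses from chow to the high-protein diet.

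**Figure D2:**
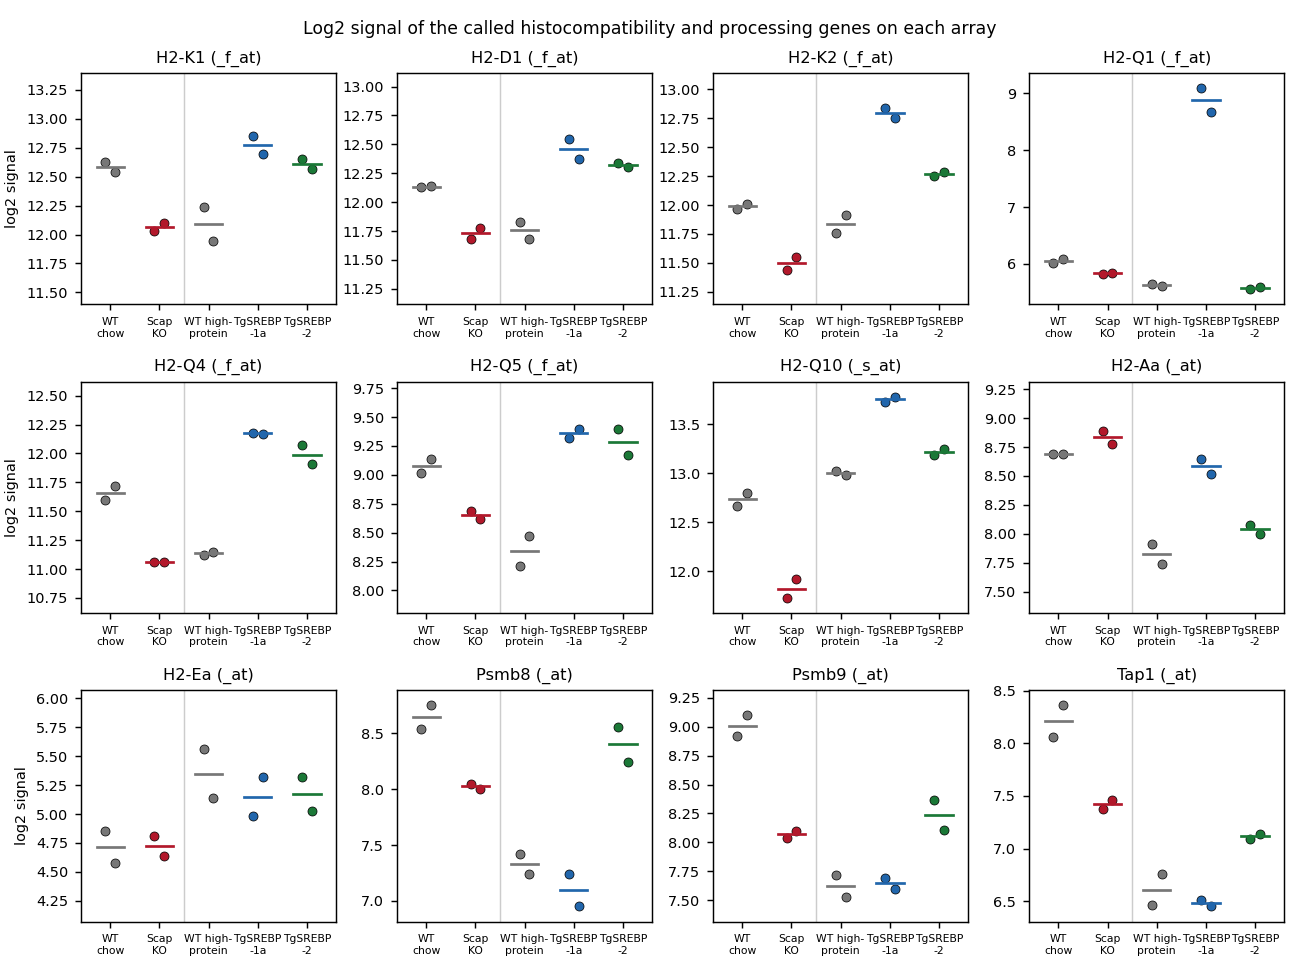
Log2 signal (vertical axis, own range in each panel) of the 12 members called in at least 1 comparison, by pool (horizontal axis). Points are the 2 arrays of a pool, bars their mean, and the grey line parts the chow-fed from the high-protein pools. H2-Q1 is high in TgSREBP-1a alone, at 9.09 and 8.67, while Psmb9 and Tap1 are highest in chow-fed wild type and Psmb8 is as high in 1 TgSREBP-2 array, at 8.56 against 8.54 and 8.75.

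Probe sets that the main rule did not use showed the same direction in TgSREBP-1a for H2-K1 and H2-D1 and differed in size. Both other probe sets of H2-D1 were higher in TgSREBP-1a, by 0.71 and 0.86, and in TgSREBP-2, by 0.83 on each. For H2-K1 the other _f_at probe set differed by 0.76 in TgSREBP-1a and 0.70 in TgSREBP-2. All of these differences passed the test, also in TgSREBP-2, where the brighter probe sets used for H2-K1 and H2-D1 did not. The plain _at probe set of H2-K1 read 6.31 to 6.83 in the chow-fed pools, 7.26 and 6.99 in high-protein wild type, 7.62 and 7.67 in TgSREBP-2, and 9.32 and 9.01 in TgSREBP-1a. Its rise in TgSREBP-1a was 2.05, against 0.69 on the brighter _f_at probe set, and it was also higher than in TgSREBP-2, by 1.52. The second probe set of H2-D4, an _i_at, stood at -0.18 in TgSREBP-1a, so H2-D4 rested on its _f_at probe set.

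**Figure D3:**
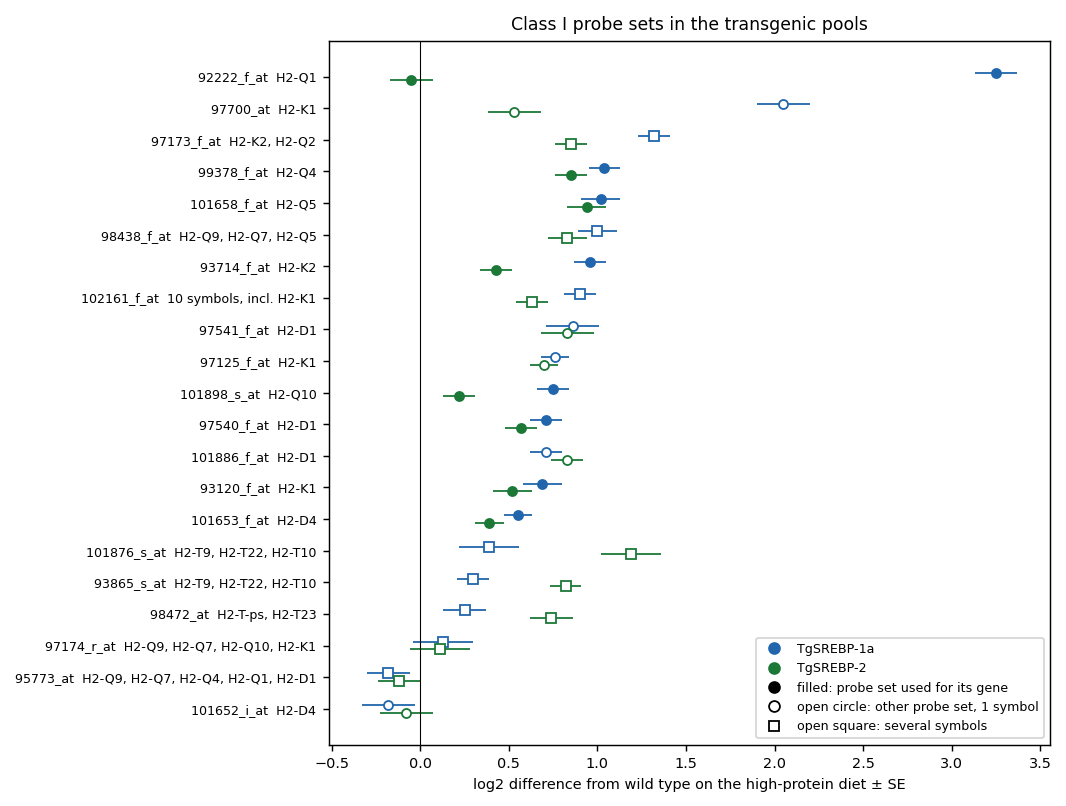
Log2 difference from high-protein wild type, with its standard error, for class I probe sets named after K, D, Q or several class I genes (rows) in TgSREBP-1a (blue) and TgSREBP-2 (green). Probe sets that list H2-T3 and H2-T18 are not drawn, and they were not called in either transgenic pool. Filled points are the probe sets used for a gene, and open squares have several symbols. H2-Q1 at 3.25 and the plain _at probe set of H2-K1 at 2.05 are the widest apart between the transgenic pools, and 3 probe sets of T region genes pass the test in TgSREBP-2 and not in TgSREBP-1a.

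The 8 T and M members, class I-like genes of narrow expression or special peptides, did not pass the limma test in any comparison. At most 2 of the 8 had an unadjusted p under 0.05. Probe sets with several T region symbols, which are not members, did pass. Both for H2-T9, H2-T22 and H2-T10 were lower in high-protein than in chow-fed wild type, at -1.80 and -1.29 (limma adjusted p = 8.7e-05 and 1.7e-05). Their calls in TgSREBP-2 are given further below. The differences of the 8 members in TgSREBP-1a ran from -0.17 to 0.40 with a median of -0.02, in TgSREBP-2 from -0.21 to 0.27, and in Scap knockout from -0.08 to 0.03. H2-Bl, a transcribed pseudogene read from an _f_at probe set, had the largest difference in TgSREBP-1a. It read 9.66 and 9.83 there and 9.35 and 9.34 in wild type, 0.40 ± 0.08 apart (adjusted p = 0.00801), which is 1.32-fold. H2-M3, which presents formylated bacterial peptides, differed by -0.08 ± 0.10 (TgSREBP-1a), -0.21 ± 0.10 (TgSREBP-2) and 0.03 ± 0.10 (Scap knockout).

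Of 11 class II genes only H2-Aa, the alpha chain of the A molecule, rose in TgSREBP-1a. It read 7.91 and 7.74 in wild type, 8.08 and 8 in TgSREBP-2, and 8.65 and 8.52 in TgSREBP-1a, a rise of 0.77 ± 0.09 or 1.70-fold (adjusted p = 0.000183). Its partner H2-Ab1 stood at 0.31 ± 0.11 (adjusted p = 0.0931) and the beta chain H2-Eb1 at 0.29 ± 0.09 (adjusted p = 0.0644). In TgSREBP-2 none of the 11 was called by limma, 2 had an unadjusted p under 0.05, and H2-Aa differed by 0.22. In Scap knockout none was called by limma either, 1 had an unadjusted p under 0.05, and the 3 genes stood at 0.15, -0.04 and 0.07.

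The larger class II differences lay between the wild type pools. H2-Aa read 8.69 on both chow-fed arrays and was lower by 0.87 ± 0.09 or 1.83-fold on the high-protein diet (adjusted p = 0.000155). H2-Ab1 and H2-Eb1 stood at -0.57 ± 0.11 and -0.56 ± 0.09, both 1.48-fold with adjusted p = 0.00678 and 0.00269. H2-Ab1 was called with the replicate number as a block (-0.64, adjusted p = 0.00211), without replicate 2 of chow-fed wild type (-0.61) and without replicate 2 of high-protein wild type (-0.63). The block was coded within each set, so its value compares the fitted levels of replicate 1, not the pool means. H2-Eb1 was called without replicate 1 of chow-fed (-0.59) or of high-protein wild type (-0.66). H2-Ea, a transcribed pseudogene in the reference strain, was higher by 0.64 ± 0.17 (adjusted p = 0.0248) at dim signals of 5.56 and 5.14 against 4.85 and 4.58. Its call was lost without either chow-fed array (0.77 and 0.50), without replicate 1 of high-protein wild type (0.43), and with 32 added on the linear scale (0.32, under 1.5-fold). Of the 34 members, 4 had a mean under a log2 signal of 6, and H2-Ea was the only one of them called.

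Genes of the path that serves class II were also higher in TgSREBP-1a. Of 7 listed for it 4 rose there and 0 fell, 1 rose in TgSREBP-2, and in Scap knockout limma called none, with 0 at an unadjusted p under 0.05. Cd74, the invariant chain that escorts class II, read 9.95 and 9.83 in TgSREBP-1a and 9.09 and 8.79 in wild type and rose by 0.96 ± 0.12 (adjusted p = 0.000242). The lysosomal proteases Ctsd, Ctss and Lgmn rose by 1.21 ± 0.09, 0.87 ± 0.18 and 0.61 ± 0.12, and Ctsd also rose in TgSREBP-2, by 0.62 ± 0.09. Between the transgenic pools Cd74, Ctsl and Ctsd were higher in TgSREBP-1a, by 0.59, 0.60 and 0.59. On the high-protein diet Cd74 and Ctss were lower in wild type than on chow, at -1.23 ± 0.12 and -0.66 ± 0.18, and Ctsl was higher, at 0.74 ± 0.10.

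Markers of class II-bearing cells differed between the same pools. Of 11 macrophage and Kupffer cell markers 5 rose in TgSREBP-1a, namely Cd5l (1.53 ± 0.16), C1qb (1.09 ± 0.09), C1qc, Lyz2 and C1qa, and 3 rose in TgSREBP-2, Cd5l, C1qb and Lyz2. In the wild type comparison 4 fell, and in Scap knockout 0 were called by limma, with 3 at an unadjusted p under 0.05. Their summed log2 signal was 12.26 to 12.35 in TgSREBP-1a, 11.97 to 12.08 in TgSREBP-2, 11.64 to 11.67 in wild type on that diet, 12.10 to 12.17 in chow-fed wild type and 12.09 to 12.11 in Scap knockout, with none of the 11 under a signal of 6 in any pool. Of 7 B cell markers Ighm alone was called, higher in TgSREBP-1a and lower in the high-protein wild type and Scap knockout pools, and the summed log2 signal was 10.71 to 10.73 in TgSREBP-1a and 10.20 to 10.39 in wild type. Limma called 0 of 8 dendritic cell and 0 of 9 T and NK cell markers in any of the 5 comparisons, and at most 3 and 4 of them had an unadjusted p under 0.05, both between the wild type pools. In a bulk sample fewer cells of a type and less RNA per cell cannot be told apart, and the part of these cells in the H2-Aa and Cd74 results was not tested.

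**Figure D4:**
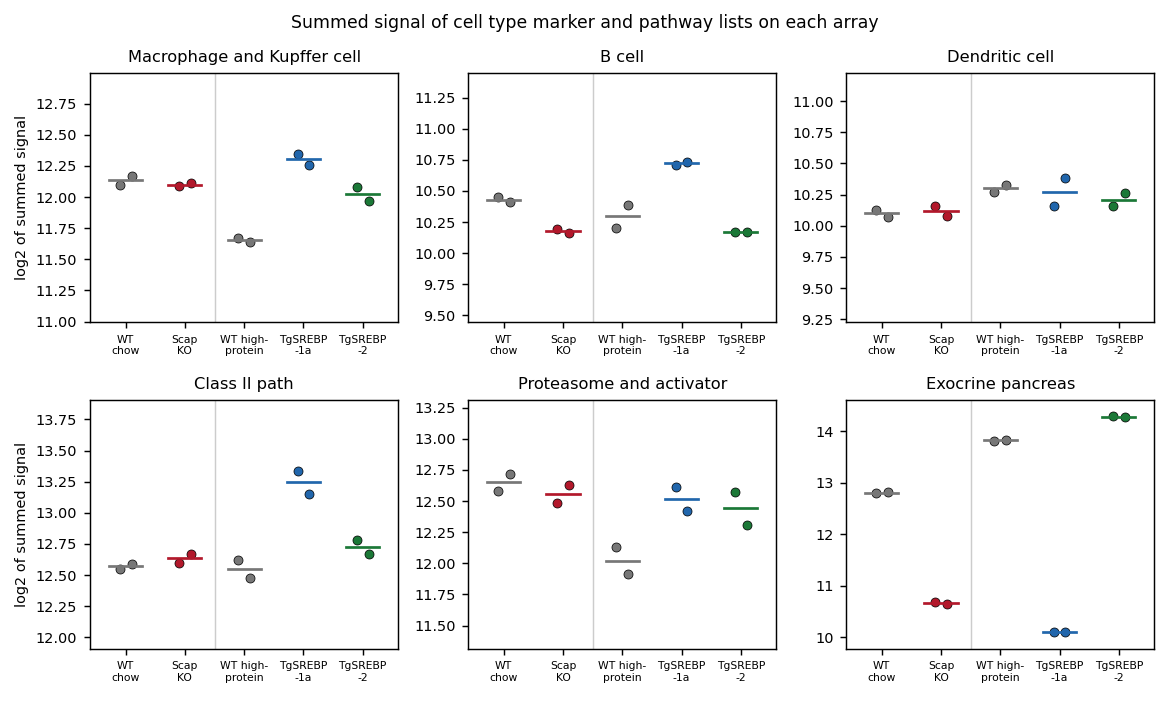
Log2 of the summed signal of 6 gene lists (panels, own vertical range) on each array, by pool (horizontal axis). Points are the 2 arrays of a pool and bars their mean. The macrophage list is lowest in high-protein wild type (11.64 and 11.67), and the exocrine pancreas list is lowest in TgSREBP-1a and highest in TgSREBP-2 (14.27 and 14.30).

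Of the 6 processing genes 3 were called lower in TgSREBP-1a than in TgSREBP-2, namely Psmb8, Psmb9 and Tap1, and B2m, Tap2 and Tapbp were not. Psmb8, the chymotrypsin-like subunit of the immunoproteasome, read 8.56 and 8.24 in TgSREBP-2 against 7.42 and 7.24 in wild type and rose by 1.07 ± 0.13 or 2.10-fold (adjusted p = 0.000996). In TgSREBP-1a it read 7.24 and 6.95, with a difference from wild type of -0.23. The gap between the transgenic pools was -1.30 ± 0.13 or 2.46-fold (adjusted p = 9.29e-05). Chow-fed wild type read 8.54 and 8.75, above both arrays of the high-protein pool, which was lower by 1.31 ± 0.13 or 2.48-fold (adjusted p = 0.000141).

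Psmb9, the other inducible catalytic subunit, read 8.37 and 8.11 in TgSREBP-2, 7.69 and 7.60 in TgSREBP-1a and 7.72 and 7.53 in wild type on that diet. It rose by 0.62 ± 0.11 or 1.53-fold in TgSREBP-2 (adjusted p = 0.00883) and was lower in TgSREBP-1a than in TgSREBP-2 by 1.51-fold (-0.60 ± 0.11, adjusted p = 0.00513). Both calls sat at the fold threshold. The rise was 0.52 without replicate 2 of wild type and 0.49 without replicate 1 of TgSREBP-2, not called in either case (adjusted p = 0.0657 and 0.0923), nor was it called, at under 1.5-fold, with 32 added on the linear scale (0.55) or a further quantile normalization (0.58). The gap between lines was under 1.5-fold without replicate 2 of TgSREBP-1a (-0.56), without replicate 1 of TgSREBP-2 (-0.47) and with 32 added (-0.53).

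Tap1, one chain of the peptide transporter, read 7.09 and 7.14 in TgSREBP-2, against 6.46 and 6.76 in wild type and 6.51 and 6.45 in TgSREBP-1a. Its difference from wild type was 0.50 ± 0.12 in TgSREBP-2 (adjusted p = 0.041), short of 1.5-fold, and it reached a call without replicate 2 of wild type (0.65). Between the transgenic pools it was lower in TgSREBP-1a by 0.63 ± 0.12 or 1.55-fold (adjusted p = 0.00623), a call that was lost with 32 added (-0.49) and when its dimmer _r_at probe set was averaged in (-0.28, adjusted p = 0.0718). The _r_at probe set alone differed from wild type by -0.30 ± 0.09 in TgSREBP-2, opposite in sign to the brighter one, and was not called. Tap2, the other chain, stood at -0.04 ± 0.07 in TgSREBP-1a and 0.18 ± 0.07 in TgSREBP-2.

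Psmb8, Psmb9 and Tap1 also fell in Scap knockout. Psmb9 read 8.04 and 8.10 against 8.92 and 9.10 and fell by 0.94 ± 0.11 or 1.92-fold (adjusted p = 0.000731), which held with any 1 array left out. Tap1 read 7.38 and 7.46 against 8.06 and 8.36 and fell by 0.79 ± 0.12 (adjusted p = 0.00446), and Psmb8 read 8.05 and 8 against 8.54 and 8.75 and fell by 0.62 ± 0.13 (adjusted p = 0.0367). The Psmb8 call was lost without any 1 of the 4 arrays compared (adjusted p of 0.101 to 0.385) and that of Tap1 without replicate 1 of Scap knockout (adjusted p = 0.0586) or replicate 2 of wild type (adjusted p = 0.0652). With 32 added Psmb8 stood at -0.56, and with its dimmer probe set averaged in Tap1 stood at -0.46, both under 1.5-fold. Without the latter array 2 of the 5 members called in this comparison were left, Psmb9 and H2-Q10, and without replicate 1 of Scap knockout 3 were left. In high-protein wild type Psmb9 and Tap1 were lower than on chow, at -1.38 ± 0.11 and -1.60 ± 0.12, or 2.61-fold and 3.04-fold (adjusted p = 2.67e-05 and 1.78e-05). The dimmer _r_at probe set of Tap1 went the other way there, at 6.51 and 6.36 against 5.99 and 6.11 on chow. Its limma difference was 0.39 ± 0.09 (adjusted p = 0.0151), under 1.5-fold.

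B2m, the light chain of every class I molecule, was not called in any comparison. It read 12.30 and 12.24 in TgSREBP-2, against 11.86 and 11.72 in wild type and 11.90 and 11.56 in TgSREBP-1a, so only the TgSREBP-2 pair lay above both wild type arrays. The difference in TgSREBP-2 was 0.48 ± 0.11 or 1.40-fold (adjusted p = 0.0398), and between the transgenic pools it was -0.54 ± 0.11 (adjusted p = 0.0118), or -0.71 and called without replicate 1 of TgSREBP-1a. Tapbp, the loading chaperone, differed by 0.30 ± 0.08 in TgSREBP-1a and 0.37 ± 0.08 in TgSREBP-2 (adjusted p = 0.0275 and 0.0252), both under 1.5-fold. Its second plain _at probe set read 8.98 and 8.74 in TgSREBP-2 against 7.88 and 7.73 in wild type. That rise of 1.06 was called (limma adjusted p = 0.000249), while the _f_at probe set of Tapbp stood at 0.08. The second plain _at probe set was also called lower in high-protein than in chow-fed wild type (-0.60 ± 0.11, adjusted p = 0.00485). Counts of called genes use the brightest Tapbp probe set, which was not called.

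Of the 6 processing genes 0 were called in TgSREBP-1a, where limma gave 1 an unadjusted p under 0.05. In TgSREBP-2 2 were called, in Scap knockout 3 and between wild type pools 3. Their median difference was -0.05, 0.49, -0.41 and -0.76 in those comparisons. The K, D and Q class I genes had 7 of 8 called higher in TgSREBP-1a and 2 of 8 in TgSREBP-2, against 4.78% and 2.18% of all genes. The TgSREBP-2 count depends on the choice of probe set, since other probe sets of H2-K1 and H2-D1 passed there. Compared directly between the transgenic pools, H2-Q1 alone of the 8 was called. All 8 were read from _f_at or _s_at probe sets that match paralogs, so their calls are not separate results. Of the 22 members not on such probe sets, 1 was called higher in TgSREBP-1a and 2 in TgSREBP-2. These are 4.55% and 9.09%, beside 4.78% and 2.18% of all genes, so in TgSREBP-1a the share was near that of all genes. The 8 T and M genes had 0 called in either transgenic pool. No test of the difference between the processing and class I genes was made. Exocrine pancreas markers varied between pools, with all 6 measured lower in TgSREBP-1a (median difference -3.00) and in Scap knockout (median -1.94), and a summed log2 signal of 10.64 to 10.69 in Scap knockout, 12.80 to 12.82 in chow-fed wild type, 13.82 to 13.83 in high-protein wild type and 14.27 to 14.30 in TgSREBP-2. In TgSREBP-2 2 of the 6 were called higher than in wild type, Reg1 and Prss2. All 6 were higher there with an unadjusted limma p under 0.05, and all 6 were lower in TgSREBP-1a than in TgSREBP-2. Psmb8, Psmb9 and Tap1 were thus called in the same direction as this list in Scap knockout and between the transgenic pools. Psmb8 and Psmb9 were also called higher in TgSREBP-2 against wild type, while Tap1 was higher and not called. Between the wild type pools 5 of the 6 markers were called higher on the high-protein diet (median 0.98), while these 3 genes were called lower. In TgSREBP-1a against wild type the markers were lower and the 3 genes were not called (-0.23, 0.02 and -0.13). The part of pancreatic RNA in the results was not tested.

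H2-Ke6 carries an H2 name by its place in the complex and encodes a hydroxysteroid dehydrogenase, not an antigen-presenting protein. It differed by -0.21 ± 0.12 (TgSREBP-1a), 0.26 ± 0.12 (TgSREBP-2) and -0.03 ± 0.12 (Scap knockout), and none was called. Between the transgenic pools it stood at -0.47 ± 0.12 (adjusted p = 0.0252), and was called without replicate 1 of TgSREBP-1a (-0.60) or replicate 2 of TgSREBP-2 (-0.59).

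Other parts of the pathway were read from fixed lists. Of 16 measured genes of interferon gamma signalling and of transcription at these loci, 1 rose in TgSREBP-1a, Nfyb, a subunit of the factor that binds the Y box (0.65 ± 0.11, adjusted p = 0.00308). Limma called none in TgSREBP-2, in Scap knockout or between the transgenic pools, where 1, 2 and 5 had an unadjusted p under 0.05, and Irf9 was lower in the high-protein wild type (-0.64 ± 0.10). Irf1, an interferon-induced activator of these genes, stood at -0.24 ± 0.09 (TgSREBP-1a), -0.09 ± 0.09 (TgSREBP-2) and -0.20 ± 0.09 (Scap knockout). Of 13 other proteasome and activator genes 5 rose in TgSREBP-1a, among them Psmb5, the constitutive counterpart of Psmb8, by 1.33 ± 0.20, and Psme1, a subunit of the interferon-inducible activator, by 0.69 ± 0.09. The others were the core subunits Psmb7 (0.77 ± 0.10), Psma7 (0.72 ± 0.09) and Psma2 (0.67 ± 0.11). In TgSREBP-2 2 of these rose, Psmb5 by 0.89 ± 0.20 and Psme1 by 0.59 ± 0.09, and they were the only ones called. Psmb10, the last inducible subunit, was at -0.28 ± 0.08 in TgSREBP-1a and 0.24 ± 0.08 in TgSREBP-2. In the high-protein wild type 8 of the 13 were lower than on chow, led by Psme1 (-1.30 ± 0.09), Psmb10 (-0.93 ± 0.08), Psmb5 (-0.86 ± 0.20), Psma1 (-0.82 ± 0.13), Psma4 (-0.74 ± 0.15) and Psma5 (-0.69 ± 0.10).

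Of 6 measured genes on the peptide loading list, 5 chaperones of the endoplasmic reticulum and the lysosomal peptide transporter Abcb9, the chaperone Hspa5 alone was called, lower in TgSREBP-1a (-0.95 ± 0.21). Of 7 MHC-like genes outside H2, Azgp1 was lower in TgSREBP-1a (-0.83 ± 0.12), and Cd1d1, which presents lipids to NKT cells, was higher in TgSREBP-2 (0.94 ± 0.21) and lower in high-protein wild type (-0.90 ± 0.21). No gene of these 2 lists was called by limma in Scap knockout, and 0 had an unadjusted p under 0.05.

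Some facts of the whole series bear on these values. Duplicate arrays of the members were at most 0.42 apart, and no member reached 1.5-fold between duplicates, while 0 to 151 of all genes did, most of them in TgSREBP-1a and high-protein wild type. The labelled tissue carried its markers, with a summed log2 signal of the 9 measured hepatocyte genes of 15.61 to 15.87 on every array with 3 of them lower in TgSREBP-1a (Ttr, Serpina1c and Tdo2) and 1 higher (Tat, 0.77 ± 0.11). Of 7 endothelial markers Lyve1 and Cdh5 rose in TgSREBP-1a, and limma called 0 in TgSREBP-2 and 0 in Scap knockout (1 and 0 at an unadjusted p under 0.05). The part of endothelial RNA in the results above was not tested.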

How the data were processed

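Liver RNA pools of 5 mice were each hybridised to 2 arrays. The authors deposited 1 table of log2 signals for 12488 probe sets, made with RMA per the submitters' processing notes ; the design text names other software, and no RMA version is stated in the labels. The deposited values ran from 2.68 to 14.03, with array medians of 6.37 to 6.4. Arrays carry no depth, and their number limits the precision.

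Of the probe sets, 10833 had 1 symbol in the platform annotation, 10817 of them matched to RefSeq by gene ID. Left out were 66 controls, 396 probe sets with several symbols and 1193 without one. The 10 arrays were fitted together with limma 3.58.1 in R 4.3.3 (lmFit, eBayes, 1 coefficient per group, 5 residual degrees of freedom), with Benjamini-Hochberg adjustment over 8251 genes and a fold threshold of 1.5, which is 0.58 on the log2 scale. The fit shares 1 variance per gene although the high-protein duplicates spread wider. The fitting script was run on simulated data with known changes. Probe-set values come from the same fit over all probe sets but controls.

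Members, gene lists and tests were chosen with earlier results of these data known. Named are all called members, the brightest of each role, and the called genes of each pathway list (at most 6 per list and comparison, by size); marker genes and others were named after their values were seen. Arrays with the same number deviated together (r of 0.46, 0.61 and 0.6 for the high-protein pools, 0.3 for the chow-fed ones), so the numbers were taken to pair arrays within each set. Alternatives were a replicate block, leaving out each array, a filter at a log2 signal of 6, 32 added on the linear scale, fits within a set, a further quantile normalization, and other choices of probe set.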

Additional observations from a re-analysis of the deposited data

Results flagged for a closer look

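The 2 transgenic pools differed in a direct test for 4 members. An effect of the transgenes cannot be told apart here from other differences between the lines or pools. H2-Q1 was higher in TgSREBP-1a than in TgSREBP-2 by 3.31. Psmb8 was lower in TgSREBP-1a (-1.30), as were Psmb9 (-0.60) and Tap1 (-0.63). The Psmb9 and Tap1 calls were lost under some alternatives, as given above.

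Probe sets with several symbols were outside the gene counts above, and some were higher than in high-protein wild type. Others were not called in either transgenic pool. Among these, the dim one that lists H2-Q1 stood at -0.18 in TgSREBP-1a and -0.12 in TgSREBP-2. The one for H2-Q9, H2-Q7, H2-Q10 and H2-K1 stood at 0.13 and 0.11. The one that lists 10 genes, H2-K1 and H2-D1 among them, rose by 0.90 in TgSREBP-1a and 0.63 in TgSREBP-2. The one for H2-K2 and H2-Q2 rose by 1.32 and 0.85, and the one for H2-Q9, H2-Q7 and H2-Q5 by 1 and 0.83. In TgSREBP-2 alone were called the probe set for H2-T23 and H2-T-ps (0.74) and both for H2-T9, H2-T22 and H2-T10 (1.19 and 0.82), of which the last stood at 0.39 and 0.30 in TgSREBP-1a. Between the transgenic pools the 0.39 probe set was called lower in TgSREBP-1a (-0.80) and the other was not (-0.52).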

How the results depend on the processing

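Each comparison's count of called members was recomputed under 9 kinds of alternative. With 1 array left out at a time, the counts ran from 7 to 8 in TgSREBP-1a, 3 to 6 in TgSREBP-2, 3 to 6 between the transgenic pools, 2 to 5 in Scap knockout and 6 to 7 between the wild type pools. Without _f_at, _s_at, _g_at, _r_at and _i_at probe sets, 23 members were left, and 2 were called in TgSREBP-1a (H2-K1 and H2-Aa), 2 in TgSREBP-2 and 3 in Scap knockout, fewer because most class I members have no other probe set. At an adjusted p under 0.05 alone 11 were called in TgSREBP-2, 9 between the transgenic pools, 9 in Scap knockout and 14 between the wild type pools, since the fold threshold was dropped. Of all 8251 genes 417, 911, 234 and 1869 were called at that threshold, against 212, 428, 137 and 464 with the fold threshold, and 1366 against 608 in TgSREBP-1a. With 32 added, 2 were called between the transgenic pools, 1 in each direction, and 5 between the wild type pools, all lower. A further quantile normalization gave 3 higher and 3 lower between the transgenic pools. The cause of these scaling changes was not tested. The replicate block changed the call of H2-Ab1 between the wild type pools (7 members called with the block) and no other member's call. Across sets the block fit compares the fitted levels of replicate 1 and not the pool means, so that change follows from its coding. No called value turned sign under any of these alternatives. The fit within a set could not be run across sets.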
